A study of Rattus norvegicus with 8 samples.

Results

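Hhip, the hedgehog-interacting protein, and 7 other core genes of the hedgehog pathway were followed in rat glomeruli: the ligands Shh and Ihh, the receptor Ptch1, the transducer Smo and the transcription factors Gli1, Gli2 and Gli3. Every probe set that the array annotation names to 1 of these genes was taken, and a gene was represented by whichever of its probe sets was brightest on average. Probe sets were named to 6 of the 8 genes, which gave 7 probe sets out of 31042 tested and 6 genes out of 14217. Ptch1 and Gli3 had none and were not measured here. The group was chosen with the strain difference of Hhip already known, so that difference is given as a description without a test.

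Glomeruli were isolated by magnetic retraction from male Dahl salt-sensitive rats (Dahl), which become proteinuric spontaneously, and from male spontaneously hypertensive rats (SHR), which do not. Both strains were kept on a low-salt diet. Sex, diet and isolation are those of the study's methods, and the arrayed rats are taken to be among the rats described there. At each of 2 ages, 4 and 6 weeks, 2 rats of either strain were arrayed. Each value is a deposited log2 value of 1 array and 1 rat, and a difference of 1 is a 2-fold difference. The strains differ in their whole genetic background and in the disease that they develop, and these cannot be told apart in this design.

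Hedgehog ligands bind PTCH1 on the receiving cell and so free SMO, which acts in the primary cilium and keeps the GLI proteins from being turned into repressors. HHIP is a membrane-bound and secreted protein that binds the ligands and holds them away from PTCH1. HHIP, PTCH1 and GLI1 are themselves classical targets of GLI, which makes their RNA a common readout of pathway activity.

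In RefSeq the 300 bases around the annotated start of a gene (assembly GRCr8, 250 bases before and 50 after) were found for 6 of 9 hedgehog genes, namely Hhip, Ptch1, Smo, Gli2, Gli3 and the third ligand Dhh. The GLI motif GACCACCCA was searched on both strands, together with its core CCACCC, which every match of the longer motif contains. The longer motif was in the Ptch1 window and in none of the other 5, against 0.385% of all 33469 windows. The core was in all 6 windows, against 29.4% of all windows. The match of the longer motif is shown for the receptor and that of the core for the inhibitor, with the matched letters in capitals.
Ptch1, chr17:1555389-1555417, + strand, the longer motif read on the opposite strand: gttgcctaccTGGGTGGTCtctctacttt
Hhip, chr19:44767981-44768010, + strand, the core: tggccttttcccCCACCCcatcctcccgcg
The annotated start of Hhip is followed directly by ATG, so its window may lie in the transcript and not before it. The matches describe letters in these windows and not binding.

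A gene was called above background in an array when its value exceeded the 95th percentile of 45 genes that a glomerulus should lack, a limit of 3.37 to 3.80 over the 8 arrays. Of the 6 measured genes, Smo was above this limit in all 8 arrays and Hhip in the 4 Dahl arrays alone. Shh, Ihh, Gli1 and Gli2 were below it in every array. With the highest gene of the list as the limit, Hhip was above it in 1 Dahl array and no hedgehog gene in all 8.

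**Figure D1:**
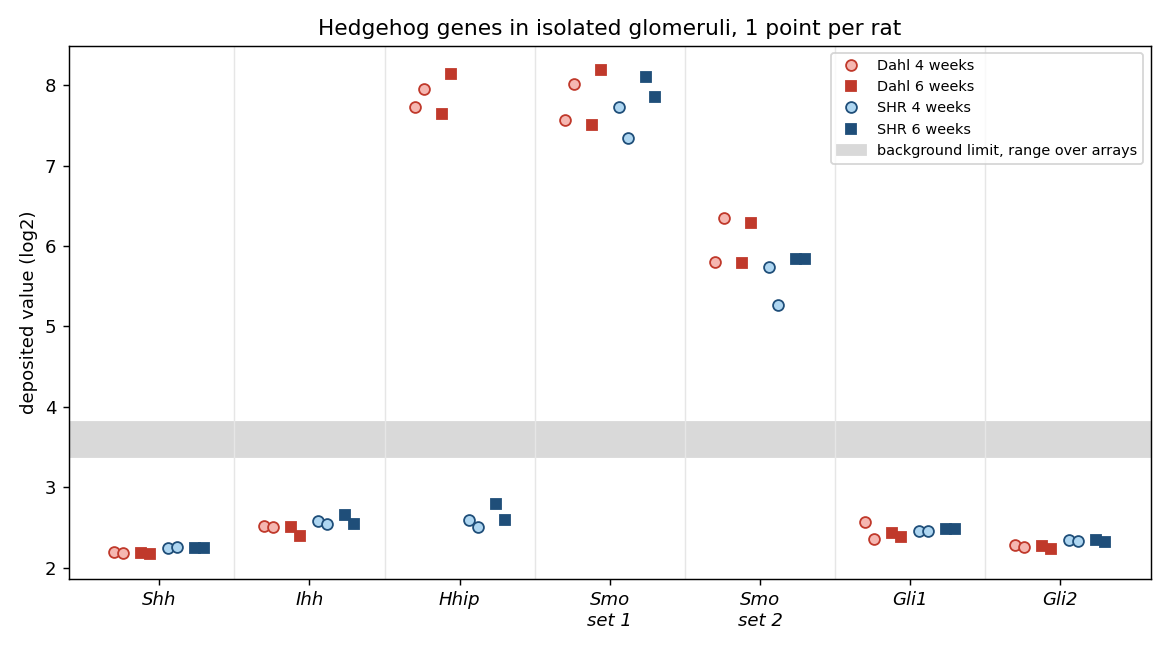
Deposited log2 values (y axis) of the 7 probe sets named to the hedgehog genes (x axis), with 1 point per rat, circles for 4 weeks, squares for 6 weeks, red for Dahl and blue for SHR; the grey band is the range of the background limit over the 8 arrays. Hhip lies between 7.64 and 8.14 in Dahl rats and between 2.50 and 2.79 in SHR rats, while Smo overlaps between the strains and the other genes lie under the band in all rats.

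Hhip was read by 1 probe set. Its value was 7.73 and 7.95 in the Dahl rats of 4 weeks and 7.64 and 8.14 in those of 6 weeks. In SHR rats it was 2.59 and 2.50 at 4 weeks and 2.79 and 2.59 at 6 weeks. The strains did not overlap at either age, and every SHR value lay under its array's limit of 3.62 to 3.79.

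Dahl rats had a mean Hhip value of 7.87 ± 0.23 (SD, n = 4) and SHR rats one of 2.62 ± 0.12 (SD, n = 4), a measured log2 difference of 5.25. Because the SHR values are not above background, only a bound can be given: against the background limit of each SHR array, Hhip was at least 17.4-fold higher in Dahl rats. The bound holds for that limit only. It would be lower against the highest gene of the list, which was at 4.16 to 5.94 in the SHR arrays. The measured log2 difference was 5.30 at 4 weeks and 5.20 at 6 weeks. As only 1 probe set reads Hhip, no second one shows whether the RNA or the match of the probes to the strain's sequence differed, and this was not tested.

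The level of Hhip in Dahl rats did not pass the test between the ages. In Dahl rats the value at 6 weeks minus that at 4 weeks was 0.05 (95% interval -0.45 to 0.54, adjusted p = 0.98). In SHR rats it was below background at both ages, so neither a change with age in SHR rats nor a change of the strain difference between the ages could be measured. Among all probe sets, 0.0805% passed between the ages in Dahl rats, 2.42% between the ages in SHR rats and 0.519% for the interaction of strain and age. None of the 6 hedgehog genes passed in any of these 3 comparisons with limma, and none had an unadjusted p under 0.05. As only Smo was above background in all arrays, this does not show a stable level for the genes below it.

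The ligands Shh and Ihh lay below background in both strains. Shh was 2.19, 2.18, 2.18 and 2.16 in the Dahl rats (the 4-week rats first) and 2.24, 2.26, 2.24 and 2.24 in the SHR rats. Ihh was 2.52, 2.51, 2.51 and 2.39 in Dahl rats and 2.58, 2.54, 2.66 and 2.54 in SHR rats. For both ligands the SHR values were the higher ones and the strains did not overlap. The share of all probe sets without overlap between the strains was not counted. A lack of overlap, here and for the genes below, is therefore a description and not a trait particular to these genes. The log2 difference, Dahl minus SHR over both ages, was -0.07 (SE 0.02, adjusted p = 0.035) for Shh and -0.10 (SE 0.04, adjusted p = 0.12) for Ihh.

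Smo, the seven-pass membrane protein that carries the signal into the cell, was well above background in both strains and overlapped between them. Its main probe set read 7.56, 8.02, 7.50 and 8.19 in Dahl rats and 7.72, 7.34, 8.10 and 7.85 in SHR rats. The second probe set read 5.80, 6.35, 5.79 and 6.29 in Dahl rats and 5.74, 5.27, 5.83 and 5.84 in SHR rats. The log2 strain difference over both ages was 0.06 (95% interval -0.49 to 0.61, adjusted p = 0.82) for the main probe set and 0.39 (95% interval -0.12 to 0.90, adjusted p = 0.17) for the second. The value of the main probe set at 6 weeks minus that at 4 weeks was 0.06 (adjusted p = 0.98) in Dahl rats and 0.45 (95% interval -0.33 to 1.23, adjusted p = 0.62) in SHR rats.

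Within the strains, the order of the rats by Hhip was that by the main probe set of Smo in the 4 Dahl rats. At both ages Dahl replicate 2 had the higher value of both genes. Compared with the other Dahl rat of their age, the same 2 rats had the higher list means of podocyte, endothelial and mesangial markers. They had the lower ones of proximal tubule, distal nephron and interstitial fibroblast markers. The proximal tubule means of the 4-week Dahl rats were nearly equal, at 11.34 and 11.32. With 4 rats per strain no correlation is given.

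The transcription factors Gli1 and Gli2 were below background in all 8 rats. Gli1, the activator whose own RNA rises with hedgehog signalling, was 2.57, 2.36, 2.43 and 2.38 in Dahl rats and 2.46, 2.45, 2.48 and 2.48 in SHR rats, and the strains overlapped. Its log2 strain difference was -0.03 (95% interval -0.17 to 0.10, adjusted p = 0.61). Gli2, the main activator at the start of signalling, was 2.28, 2.26, 2.26 and 2.23 in Dahl rats and 2.34, 2.33, 2.34 and 2.32 in SHR rats. Its values were lower in all 4 Dahl rats than in any SHR rat, with a log2 difference of -0.08 (SE 0.02, adjusted p = 0.034).

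Besides Hhip, 2 of the 5 genes thus passed the test over both ages, Shh and Gli2, while 34.7% of all probe sets did. Both were lower in Dahl rats, as were 24.2% of all probe sets. With all probe sets divided by brightness into 4 groups of equal size, the dimmest group had a median log2 difference of -0.06 and the next one of -0.11, so the differences of Shh and Gli2 were of the size of this shift. With quantile normalization they were -0.01 and -0.01, and neither passed. Leaving out 1 rat ended both calls for 7 of the 8 rats, the exception being Dahl 6 weeks replicate 1.

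At 4 weeks and at 6 weeks taken alone, none of these 5 genes passed with limma, while 12.0% and 3.28% of all probe sets did. At each age 2 of them, Shh and Gli2, had an unadjusted p under 0.05. Of the 6 measured genes, only Hhip was above background in 1 strain and not in the other.

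The wider pathway was described with 54 further genes in 5 lists, of which 45 were measured and 29 were above background in all 8 arrays. Over both ages 15 of the 45 passed, 33.3% against the 34.7% of all probe sets. With 1 rat left out 3 to 17 passed, under 10 of them without SHR 6 weeks replicate 2 (3), SHR 6 weeks replicate 1 (4), Dahl 4 weeks replicate 2 (4), SHR 4 weeks replicate 2 (5) or Dahl 6 weeks replicate 2 (8). Of these, 9 were higher in Dahl rats, where 10.6% of all probe sets were, and 6 were lower. The median log2 difference was 0.00 over the 45 genes and -0.05 over all probe sets. Among the 32 genes whose mean lay above background, 8 were higher and 1 was lower. Of all probe sets that passed, 30.4% were higher in Dahl rats as deposited and 47.7% after quantile normalization. Of the probe sets brighter than the median, tested alone, 2957 were higher and 1820 lower, so 61.9% of those that passed were higher.

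**Figure D2:**
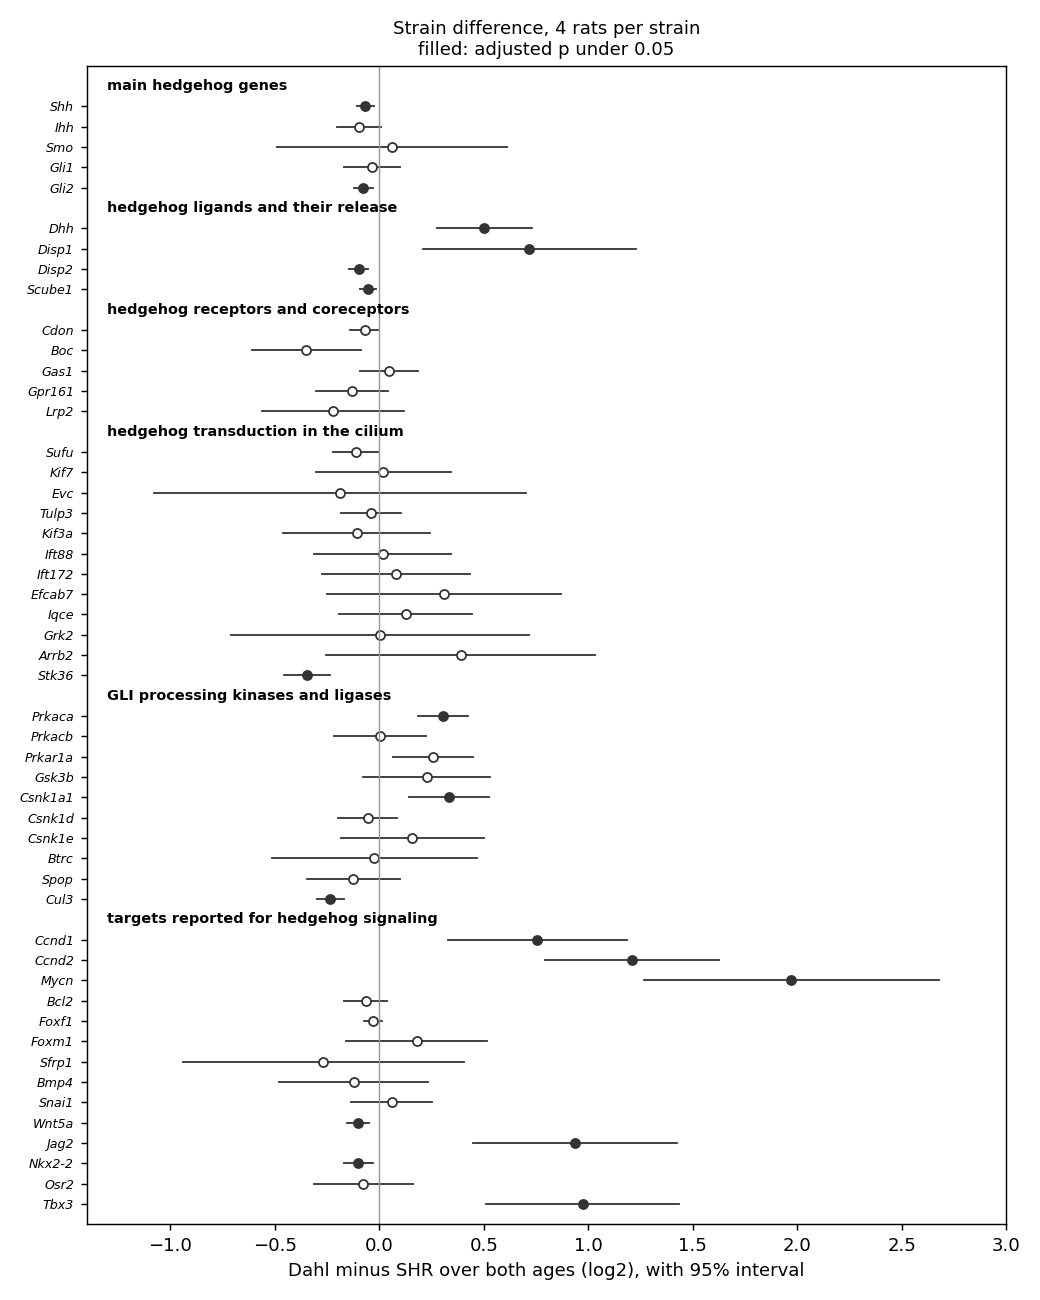
Log2 difference between the strains, Dahl minus SHR over both ages (x axis), for the measured hedgehog genes other than Hhip and for the genes of the 5 wider lists (y axis), with the 95% interval as a line; filled points passed at an adjusted p under 0.05. Mycn at 1.97 and Ccnd2 at 1.21 lie farthest to the right, and all filled points left of 0 except Cul3 are genes below background.

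Of the list of ligands and their release, 4 of 7 genes were measured and all 4 passed, 2 in each direction. Of all probe sets, 34.7% passed over both ages. Disp1, the membrane protein that releases lipid-modified hedgehog ligands, was 5.97, 6.61, 6.79 and 7.38 in Dahl rats and 5.88, 5.77, 6.10 and 6.12 in SHR rats, above background in all. The highest values were those of the 6-week Dahl rats, and the strains overlapped through 1 Dahl rat of 4 weeks. The log2 difference over both ages was 0.72 (SE 0.20, adjusted p = 0.047), and it did not pass after quantile normalization (0.62, adjusted p = 0.10).

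Dhh, the ligand best known from testis and nerve sheath, was 2.80 and 2.91 in Dahl rats of 4 weeks, 3.51 and 3.86 in those of 6 weeks, and 2.68 to 2.82 in SHR rats. It was above background in only 1 array, Dahl 6 weeks replicate 2. Its log2 difference was 0.50 (SE 0.09, adjusted p = 0.022) over both ages and 0.88 (SE 0.13, adjusted p = 0.043) at 6 weeks, and 0.13 (adjusted p = 0.47) at 4 weeks. The test of the change in that difference did not pass (0.76, adjusted p = 0.21). Leaving out Dahl 6 weeks replicate 2 ended the call at 6 weeks, as did leaving out any 1 of the other rats apart from Dahl 6 weeks replicate 1. Disp2 and Scube1 were below background in every array and lower in Dahl rats by no more than the shift of the dim probe sets, at -0.10 and -0.05.

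None of the 5 measured receptors and coreceptors passed, while 34.7% of all probe sets did. The coreceptor Boc was 6.62, 6.78, 6.93 and 7.15 in Dahl rats and 7.30, 7.24, 6.99 and 7.34 in SHR rats, which overlapped by 1 rat of each strain, with a log2 difference of -0.35 (SE 0.10, adjusted p = 0.052). Cdon and Gas1, which bind the ligands beside PTCH1, were below background in all rats. Lrp2, an endocytic receptor that also marks the proximal tubule, was 11.7 to 12.4 in Dahl rats and 12.2 to 12.6 in SHR rats.

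Of 12 measured genes of transduction in the cilium, 9 were above background in all rats. In this list 1 gene passed, or 8.33% against 34.7% of all probe sets. Stk36, a kinase that takes part in GLI regulation, was below background in every array, at 3.15 to 3.31 in Dahl rats and 3.52 to 3.64 in SHR rats. Its log2 difference was -0.35 (SE 0.04, adjusted p = 0.011), while its second probe set, also below background, differed by 0.00 (adjusted p = 0.97). Sufu, the inhibitor that holds the GLI proteins in the cytoplasm, was below background at 2.43 to 2.70. The motor and transport proteins Kif7, Kif3a, Ift88 and Ift172 were above background in all rats, with log2 differences of -0.11 to 0.08 that did not pass.

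All 10 measured kinases and ligases that process the GLI proteins were above background in all rats. Of these 10, 3 passed over both ages, while 34.7% of all probe sets did. Prkaca, a catalytic subunit of protein kinase A, was 6.29, 6.39, 6.39 and 6.40 in Dahl rats and 6.05, 5.98, 6.03 and 6.18 in SHR rats, a log2 difference of 0.31 (SE 0.05, adjusted p = 0.016) without overlap. Csnk1a1, casein kinase 1 alpha, was 10.98, 11.21, 11.05 and 11.26 in Dahl rats and 10.63, 10.55, 11.02 and 10.97 in SHR rats, a difference of 0.33 (SE 0.07, adjusted p = 0.033). The strains did not overlap at either age, but 1 SHR rat of 6 weeks lay above 1 Dahl rat of 4 weeks. Its other 3 probe sets differed by 0.23, 0.10 and -0.02 without passing, and neither did the mean of its 4 probe sets. Cul3, the scaffold of a ubiquitin ligase, was 10.33 to 10.45 in Dahl rats and 10.57 to 10.69 in SHR rats, a difference of -0.23 (SE 0.02, adjusted p = 0.0090). The second probe set of Cul3 leaned the other way, at 0.17 (adjusted p = 0.089), and the mean of its probe sets did not pass. Prkar1a, a regulatory subunit of protein kinase A, missed the threshold by its main probe set (0.26, adjusted p = 0.051), while its other 2 probe sets passed, at 0.65 and 0.48.

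Among 14 measured genes reported as hedgehog targets, 7 passed, 5 higher and 2 lower in Dahl rats. That was 50.0% against 34.7% of all probe sets, of which 10.6% were higher and 24.2% lower. The list was chosen with earlier results of these data known. The 5 higher genes were Mycn, Ccnd2, Ccnd1, Tbx3 and Jag2, and their means lay above background. These genes are also induced by other growth signals. The 2 lower ones, Wnt5a and Nkx2-2, were below background in all rats, with differences of -0.10 and -0.10, no more than the shift of the dim probe sets. With quantile normalization neither passed in limma, at -0.02 (adjusted p = 0.37) for Wnt5a and -0.03 (adjusted p = 0.36) for Nkx2-2. The remaining 7 included Bcl2, Foxf1 and Foxm1, below background in all rats, and Bmp4, at 7.93 to 8.65 with a log2 difference of -0.12 (adjusted p = 0.49).

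Mycn, a proliferation-associated transcription factor, was 6.03, 6.17, 5.77 and 6.66 in Dahl rats and 4.27, 3.49, 4.38 and 4.60 in SHR rats. All Dahl values lay above all SHR values, and 1 SHR rat of 4 weeks was below background. The log2 difference was 1.97 (SE 0.27, adjusted p = 0.014), or 3.92-fold. At 4 weeks it was 2.22 (SE 0.39, adjusted p = 0.033).

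The D-type cyclins, which drive entry into the cell cycle, were both higher. Ccnd2 was 9.25, 9.38, 9.32 and 9.89 in Dahl rats and 8.10, 7.69, 8.63 and 8.58 in SHR rats, a log2 difference of 1.21 (SE 0.16, adjusted p = 0.013) without overlap. Ccnd1 was 11.01, 10.71, 10.71 and 11.07 in Dahl rats, 9.64 and 9.37 in SHR rats of 4 weeks and 10.98 and 10.49 in those of 6 weeks. The Ccnd1 values of the strains were thus apart at 4 weeks and overlapped at 6 weeks. The Ccnd1 difference was 1.36 (SE 0.23, adjusted p = 0.032) at 4 weeks and 0.16 (adjusted p = 0.63) at 6 weeks, but the change between the ages did not pass (-1.20, SE 0.33, adjusted p = 0.28). All 3 probe sets of Ccnd1 passed over both ages, at 0.55 to 0.76, but the main one did not after quantile normalization (0.76, adjusted p = 0.050).

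Tbx3, a T-box transcription factor, was 7.45, 8.14, 7.80 and 8.16 in Dahl rats and 6.91, 6.91, 6.86 and 6.99 in SHR rats, a log2 difference of 0.97 (SE 0.18, adjusted p = 0.024). Of its other 3 probe sets, the second passed at 1.91 (adjusted p = 0.023), the third differed by 1.42 (adjusted p = 0.12), and the fourth, below background in all rats, by 0.02 (adjusted p = 0.59). Jag2, a Notch ligand, was 4.92, 5.38, 5.86 and 5.76 in Dahl rats and 4.80, 4.22, 4.77 and 4.39 in SHR rats, a difference of 0.94 (SE 0.19, adjusted p = 0.028). Neither gene overlapped between the strains.

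**Figure D3:**
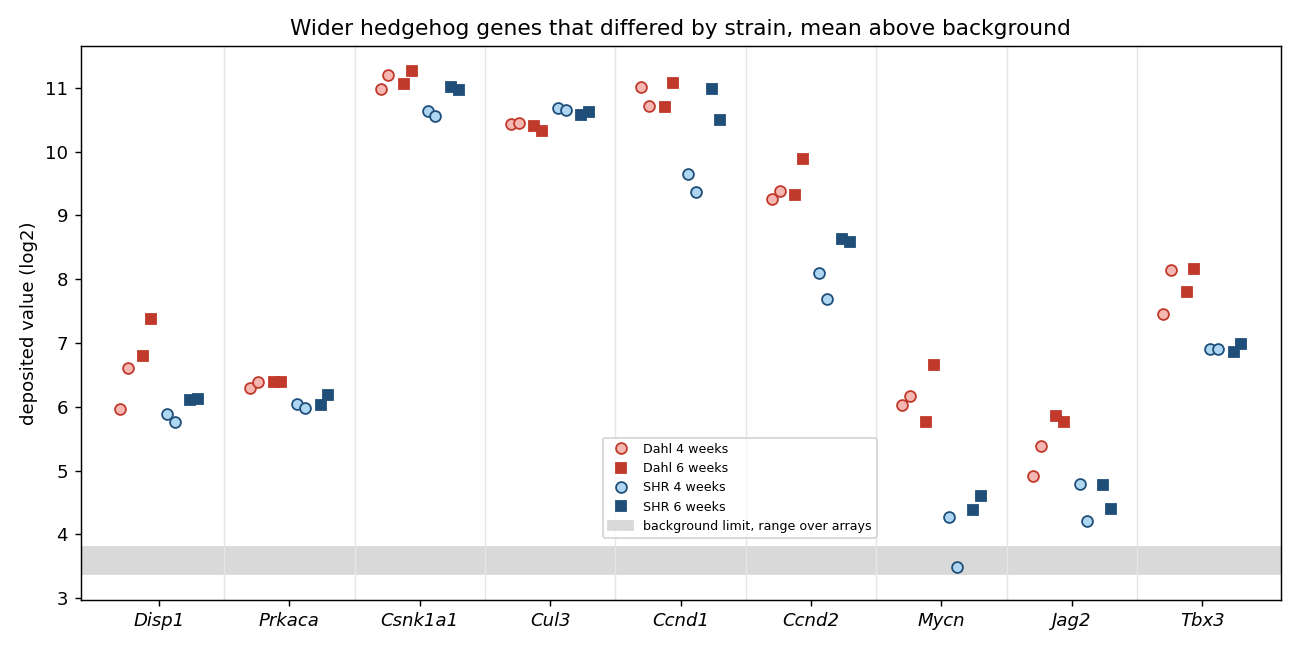
Deposited log2 values (y axis) of the 9 wider pathway genes that passed over both ages and whose mean lies above background (x axis), with 1 point per rat, colours and symbols by strain and age, and the range of the background limit as a grey band. Ccnd2, Mycn, Jag2, Tbx3, Prkaca and Cul3 do not overlap between the strains, while Disp1, Csnk1a1 and Ccnd1 do.

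The calls over both ages rest on few rats. Those of Stk36 and Cul3 held without any 1 rat. That of Ccnd2 was lost without SHR 6 weeks replicate 2 (adjusted p = 0.053), that of Prkaca without replicate 2 of either strain at 4 weeks, and that of Mycn without Dahl 4 weeks replicate 2 or either SHR rat of 6 weeks (adjusted p up to 0.053). Dhh lost it without Dahl 4 weeks replicate 2, SHR 4 weeks replicate 2 or either SHR rat of 6 weeks, and Tbx3 without Dahl 6 weeks replicate 2 or any SHR rat. Disp1 and Csnk1a1 kept it only without Dahl replicate 1 of either age, Ccnd1 only without Dahl 6 weeks replicate 1, and Jag2 only without replicate 1 of either strain at 4 weeks.

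At 4 weeks 7 wider genes passed, 5 of them higher in Dahl rats (Mycn, Ccnd2, Ccnd1, Csnk1a1 and Prkaca) and 2 lower (Stk36 and Cul3), or 15.6% against 12.0% of all probe sets. The call of Prkaca at 4 weeks was lost whichever rat was left out, and after quantile normalization (adjusted p = 0.090). At 6 weeks 2 passed, Dhh and Cul3, or 4.44% against 3.28%. The count at 6 weeks was 8 without Dahl 6 weeks replicate 1, 1 without either Dahl rat of 4 weeks, and 0 without Dahl 6 weeks replicate 2 or any SHR rat. The count at 4 weeks was 2 without Dahl 4 weeks replicate 1, and 0 without Dahl 4 weeks replicate 2 or any SHR rat.

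By its main probe set, no wider gene passed with age in either strain, or for the interaction, with limma. At an unadjusted p under 0.05 there were 3 in Dahl rats, 6 in SHR rats and 6 for the interaction. The smallest p in Dahl rats was that of Dhh (0.83 higher at 6 weeks, adjusted p = 0.17), and in SHR rats that of Ccnd1 (1.23 higher, adjusted p = 0.084). The third probe set of Ccnd1 did pass in SHR rats, at 0.98 higher (adjusted p = 0.029). Without Dahl 6 weeks replicate 1, 4 wider genes passed with age in Dahl rats and 2 for the interaction.

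Cell type markers were compared between the strains over both ages, and the counts are of those that passed. Of all probe sets, 10.6% passed as higher in Dahl rats and 24.2% as lower. Of 8 measured mesangial and smooth muscle markers 7 were higher in Dahl rats, with a mean log2 level of 8.46 to 8.60 in Dahl and 7.52 to 7.84 in SHR rats. All 8 were above background in every array. The 8 podocyte markers were also above it, with 3 higher and list means of 10.8 to 11.3 in Dahl and 10.4 to 10.8 in SHR rats. Of 8 glomerular endothelial markers 3 were higher, with means of 9.76 to 10.4 and 9.38 to 9.76.

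The 12 proximal tubule markers were all above background in every array, with list means of 11.3, 11.3, 11.1 and 9.39 in Dahl rats and 11.5 to 12.3 in SHR rats, and 2 of them were lower in Dahl rats. The 10 distal nephron and collecting duct markers had means of 5.90 to 7.48 and 7.22 to 8.14, with 3 lower, where 24.2% of all probe sets were. The preparations thus held tubular RNA, least of it in Dahl 6 weeks replicate 2. The 7 interstitial fibroblast markers (Lum was below background) had means of 6.36 to 7.08 and 6.05 to 6.37, with 2 higher and 1 lower. The 9 leukocyte markers had means of 4.28 to 4.71 and 3.96 to 4.63, with 3 higher and 4 lower. Cd163, Cd3d, Cd4 and Itgam were below background in all rats. The part of these markers in the results for Hhip and the wider genes was not tested, and in whole glomeruli fewer cells of a type and less RNA per cell cannot be told apart.

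The 5 genes whose profile over the 8 arrays was nearest to that of Hhip, by the root mean square difference of centred log2 values, were Ogn (0.44), RT1-Ba (0.48), Mamdc2 (0.54), Hjv (0.71) and Synpo2l (0.79). All 5 were chosen by the likeness, so their strain differences are a description. Ogn, which encodes the matrix proteoglycan osteoglycin, was 9.23, 9.49, 9.37 and 9.83 in Dahl rats and 5.09, 5.10, 5.35 and 4.80 in SHR rats, and its 4 probe sets were higher in Dahl rats by 2.75 to 4.78. RT1-Ba, a class II histocompatibility gene, was 8.13 to 9.29 in Dahl and 2.51 to 3.58 in SHR rats by its main probe set. Its second probe set read 3.01 to 3.17 in Dahl and 6.21 to 9.40 in SHR rats, so that the direction for this gene depends on the probe set.

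The genes beside Hhip on the chromosome did not share its difference. In the RefSeq gene order (GRCr8), the 3 nearest measured genes on one side were Frem3, Smarca5 and Gab1, and those on the other were Anapc10, Abce1 and Otud4, with 5 other listed genes between Hhip and Frem3 and 2 between Hhip and Anapc10. Their log2 differences over both ages were -0.19, 0.11, -0.16, 0.28, -0.13 and 0.00 in that order. Only Frem3 passed (adjusted p = 0.047), while 34.7% of all probe sets did, and Frem3 was below background in all rats. Abce1 did not pass, but its strains did not overlap, at 7.94 to 8.16 in Dahl and 8.17 to 8.22 in SHR rats.

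**Figure D4:**
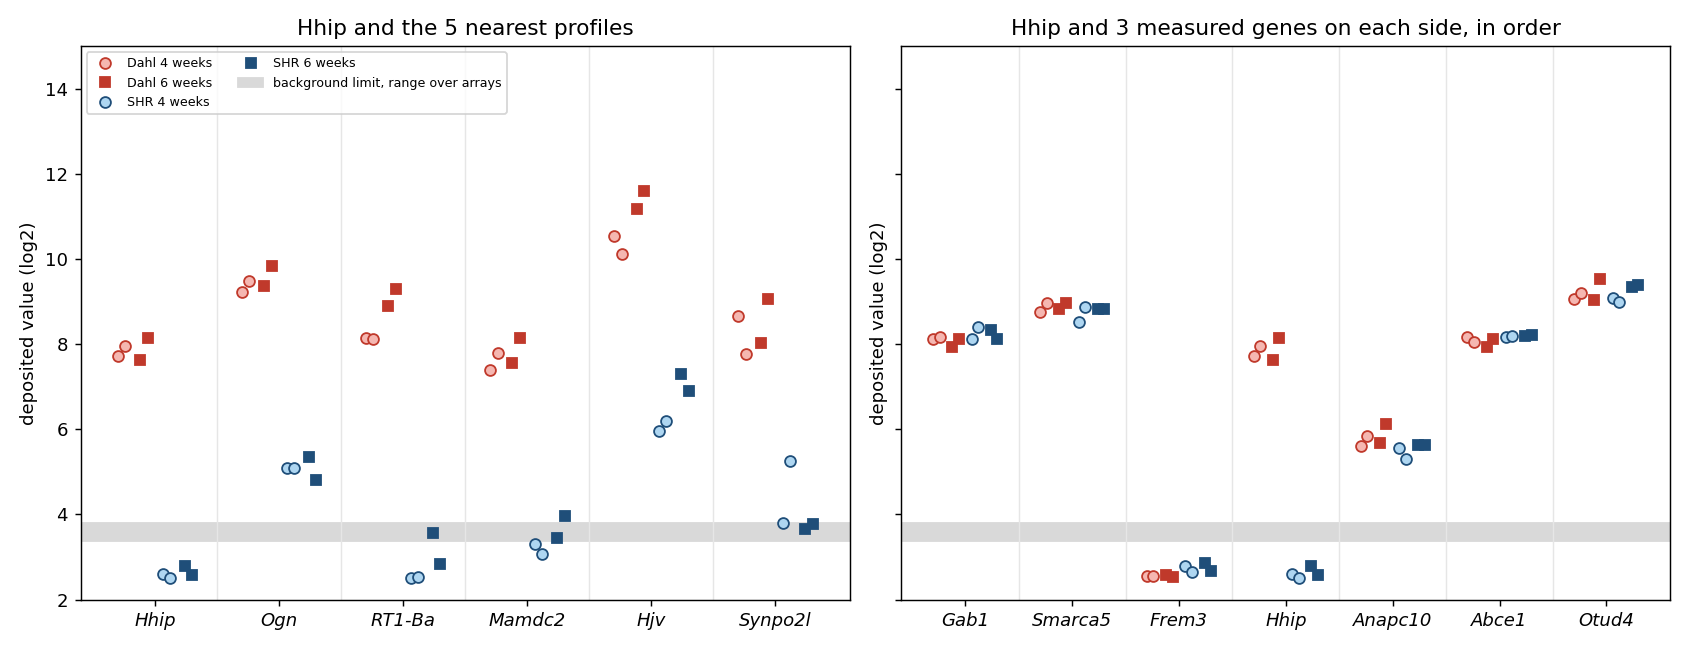
Deposited log2 values (y axis) of Hhip and the 5 genes with the nearest profiles (left) and of Hhip between the 3 nearest measured genes on each side of it in chromosome order (right), with 1 point per rat, colours and symbols by strain and age, and the range of the background limit as a grey band. The 5 nearest profiles are higher in all Dahl rats than in any SHR rat, while among the 6 chromosomal neighbours the strains lie within 0.28 of each other on average.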

How the data were processed

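Total RNA of isolated glomeruli was hybridised to 8 Affymetrix rat arrays, 1 per rat. The deposited log2 values were used without further normalization. Per the labels the authors used RMA and GCRMA; the sources used here do not say which of these made the values, in which version, or when the arrays were scanned. The 57 control probe sets were left out. Gene names came from the array annotation, which names 1 gene for 20826 of 31042 probe sets, several for 436 (not used) and none for 9780.

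All probe sets were fitted with 1 mean per group in limma 3.58.1 (R 4.3.3; 4 residual and 0.921 prior degrees of freedom). Adjusted p-values are Benjamini-Hochberg values over 31042 probe sets, with a threshold of 0.05. The fit was tested on simulated data. The labels call the samples biological replicates. Named were all hedgehog genes, the wider genes that passed, 5 nearest profiles and 3 neighbours per side. The wider genes were limited to 10 per comparison, smallest p first, or otherwise to 2 per list. Scube1 and Nkx2-2, which passed, were added after their values were seen, as were the wider genes named without a call. Members and lists were chosen with earlier results of these data known. Of 54 wider genes, 9 had no probe set; of 47 background genes, 45 had one. The number of arrays limits the precision.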

Additional observations from a re-analysis of the deposited data

Results flagged for a closer look

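Within each strain, the 4 values of each of the 7 probe sets were searched for 1 rat far from the others (14 groups, of which chance would mark about 1 in 20). Shh was 2.26 in SHR 4 weeks replicate 2 against 2.24 in the other SHR rats. Ihh was 2.39 in Dahl 6 weeks replicate 2 against 2.51 to 2.52 in the other Dahl rats. Both genes were below background in all rats.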

How the results depend on the processing

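The number of hedgehog genes above background in all arrays stayed at 1 under every alternative except with the highest gene of the list as the limit, where it was 0. The 2 hedgehog calls over both ages (Shh, Gli2) became 0 with quantile normalization, in the probe sets brighter than the median, with the replicate block and among genes with a mean above background (an alternative chosen after seeing the data), and 0 to 2 with 1 rat left out. With an intensity trend and robust variance 2 passed at 4 weeks and 2 at 6 weeks in place of 0. The study's methods name Student's t-test for mRNA and protein levels, and no test for single genes on the arrays. By this t-test before adjustment 2 passed at 4 weeks, 1 at 6 weeks and 1 with age in SHR rats.

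The 15 wider genes over both ages became 9 with quantile normalization, 8 among the brighter probe sets, 8 with the replicate block, 9 among genes with a mean above background and 3 to 17 with 1 rat left out. The 7 at 4 weeks became 11 with the trend, 1 with the replicate block, 4 with the mean of the probe sets of a gene, 0 by the adjusted t-test and 0 to 7 with 1 rat left out. The 2 at 6 weeks became 1 with quantile normalization, 10 with the trend, 4 among the brighter probe sets, 0 with the replicate block, 1 with the mean of the probe sets, 1 above background, 0 by the adjusted and 10 by the unadjusted t-test, and 0 to 8 with 1 rat left out. With age, 0 became 2 by the unadjusted t-test and 0 to 4 with 1 rat left out in Dahl rats, and 1 among the brighter probe sets, 1 with the mean of the probe sets and 7 by the unadjusted t-test in SHR rats. For the interaction 0 became 0 to 2 with 1 rat left out. The causes were not tested.

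Log2 differences of hedgehog genes that changed sign were all below the threshold. Over both ages these were Gli1 after quantile normalization (0.0347), and with 1 rat left out Smo (-0.11 to 0.23) and Gli1 (-0.0871 to 0.0204). At 4 weeks they were Ihh after quantile normalization (0.0303) and Gli1 with centred arrays (-0.0382) or 1 rat left out (-0.10 to 0.12). At 6 weeks it was Smo as the mean of its probe sets (0.0353) or with 1 rat left out (-0.48 to 0.21). With age in Dahl rats they were, with 1 rat left out, Hhip (-0.21 to 0.30), Smo (-0.29 to 0.40) and Gli1 (-0.17 to 0.0493). In SHR rats they were Shh (0.0013) and Gli2 (0.0005) after quantile normalization, and with 1 rat left out Ihh (-0.0207 to 0.10) and Gli2 (-0.0204 to 0.0009). For the interaction they were Shh (0.0059) and Gli2 (0.0054) with centred arrays, and with 1 rat left out Hhip (-0.35 to 0.15, with the SHR values below background), Gli1 (-0.19 to 0.0247) and Gli2 (-0.0247 to 0.0075). The measured strain difference of Hhip at 6 weeks was 4.95 to 5.45 with 1 rat left out.

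The correlations of same-numbered deviations ran from -0.23 to 0.24 over the 6 pairs of groups, the highest between the Dahl groups. These values have no spread to be compared with, so they do not decide whether the replicate numbers pair the rats. The block lowered the number of probe sets that passed over both ages from 10787 to 5598.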
